A study of Homo sapiens with 6 samples.

Results

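PAX3, PAX7, FOXO1, FOXO3 and FOXO4 encode transcription factors, and PAX3 and FOXO1 are the genes joined by the chromosomal translocation of the cell line studied here. They are 5 of the 35580 genes, and 28 of the 188753 transcripts, in the deposited abundance tables. They were chosen by gene symbol after each transcript identifier was joined to the GENCODE release 29 annotation of GRCh38. The choice used no measured value, but earlier results of these data were known when it was made. The RNA-seq libraries, made with a stranded mRNA kit, are of Rh30, an established human alveolar rhabdomyosarcoma cell line that the labels give as PAX3-FOXO1 positive. There were 3 control libraries and 3 libraries of cells with knock-down of DDX5, an RNA helicase, written siDDX5. The fusion is present in both groups, so these data hold no comparison of cells with and without it. All 6 libraries come from the same line, and the series describes its replicates as biological. The nature of the control and the time of harvest are not given in the sources used here.

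PAX3 and PAX7 are paralogous factors of the embryonic neural crest and muscle progenitors, each binding DNA through a paired domain and a homeodomain. FOXO1, FOXO3 and FOXO4 are forkhead factors that AKT phosphorylates in cells with active insulin and growth factor signalling, after which 14-3-3 proteins hold them in the cytoplasm, away from their targets in cell cycle arrest, stress resistance and apoptosis. In fusion-positive alveolar rhabdomyosarcoma the DNA-binding domains of PAX3, or less often PAX7, are joined to the transactivation domain of FOXO1, and the product drives the genes to which the PAX domains bind.

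The fusion keeps exons 1 to 7 of PAX3 and exons 2 and 3 of FOXO1, the break lying in intron 7 of PAX3 and intron 1 of FOXO1. Exon numbers are those of ENST00000350526.9 for PAX3 and ENST00000379561.5 for FOXO1, both on the minus strand. The ends that meet in the fused RNA, and those they are parted from, are shown because the transcript groups below are defined by them. They are RNA-sense sequences of GENCODE release 29, 5′ to 3′, with the 3 bases next to the exon boundary in capitals. PAX3 exon 7 ends at chr2:222220140-222220199 and exon 8 starts at chr2:222202131-222202190. FOXO1 exon 1 ends at chr13:40665583-40665642 and exon 2 starts at chr13:40560801-40560860.
PAX3 end of exon 7: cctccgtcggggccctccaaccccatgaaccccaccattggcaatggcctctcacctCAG
PAX3 start of exon 8: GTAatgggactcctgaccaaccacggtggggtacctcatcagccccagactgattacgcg
FOXO1 end of exon 1: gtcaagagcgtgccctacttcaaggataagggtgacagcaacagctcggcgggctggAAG
FOXO1 start of exon 2: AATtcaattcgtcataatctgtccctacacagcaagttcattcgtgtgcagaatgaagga

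Joining the end of PAX3 exon 7 to the start of FOXO1 exon 2 in these reference transcripts gave a model RNA of 6030 bases, 1310 from PAX3 and 4720 (78.3%) from FOXO1. Its open reading frame ran through the join and encoded 836 residues, the first 391 of them from PAX3. Kallisto, the program behind the deposited values, assigns reads by words of the sequence. Of the 6000 words of 31 bases in the model, 1280 occurred in annotated PAX3 transcripts, 4692 in annotated FOXO1 transcripts and 28 in neither. The fused RNA was not analysed here as an entry of its own. Reads from it and reads from the unrearranged alleles cannot be told apart in the values of PAX3 and FOXO1 below.

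The members also differ in how far their sequences can be told from one another. The stretches below cover the DNA recognition helix of the forkhead domain and of the homeodomain, with bases that differ from FOXO1, or in PAX7 from PAX3, in capitals. In all 5 the window spans an exon boundary 9 bases from its start, and in FOXO1 that boundary is the one at which the fusion is made, so that the codons of the helix lie on the retained side.
FOXO1 helix: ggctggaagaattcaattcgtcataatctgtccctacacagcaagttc
FOXO3 helix: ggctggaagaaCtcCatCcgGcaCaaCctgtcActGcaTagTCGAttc
FOXO4 helix: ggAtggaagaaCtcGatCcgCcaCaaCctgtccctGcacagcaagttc
PAX3 helix: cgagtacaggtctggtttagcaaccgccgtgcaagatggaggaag
PAX7 helix: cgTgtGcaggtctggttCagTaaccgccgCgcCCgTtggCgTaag
FOXO3 differed from FOXO1 at 13 of the 48 bases, FOXO4 at 8 of 48, and PAX7 from PAX3 at 10 of 45. Over whole transcripts FOXO1, FOXO3 and FOXO4 shared no 31-base word with each other, and PAX3 and PAX7 shared 3. FOXO3 shared 34.9% of its words with other genes, among them 1396 words with FOXO3B, a pseudogene at chr17:18670946-18672873 whose sequence was 99.1% identical to that of FOXO3. FOXO1 shared 4.82% of its words with other genes, mostly with LINC00598, and FOXO4 shared none. LINC00598, with 242 words of FOXO1, and AC026271.3, with 1095 of FOXO3, were not found among the deposited transcripts. Both percentages thus include words of genes that have no deposited values.

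Library totals ran from 18202402 to 26156858 estimated counts, so that 3 counts correspond to between 0.1147 and 0.1648 CPM, counts scaled to a common library size. DDX5 stood at 1352, 1434 and 1137 CPM in the control replicates and at 549, 504 and 396 CPM in the siDDX5 replicates, and fell by 1.44 on the log2 scale (SE 0.15, adjusted p = 0.0106 by edgeR's quasi-likelihood test, adjusted by Benjamini and Hochberg's method). Without control replicate 1, siDDX5 replicate 1 or siDDX5 replicate 2 this call was lost, with an adjusted p of 0.0953, 0.0653 and 0.0531 in edgeR. All 10 myogenic markers examined reached 1 TPM, a unit that also divides by transcript length, and together held 1942 to 2510.0 TPM in the control and 2008 to 2111 TPM in the siDDX5 libraries. Of 5 markers of fusion-positive tumours 3 reached 1 TPM, while TFAP2B was listed at 0 and CDH3 averaged 0.269 TPM in the control libraries. The 5 epithelial markers summed to at most 2.5 TPM in any library, the haematopoietic ones to at most 5.74, the endothelial ones to at most 7.44 and the fibroblast ones to at most 36.9.

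FOXO3 was the most abundant member per length, PAX3 and FOXO1 followed, FOXO4 was lower and PAX7 was hardly detected. No member gene passed the test between siDDX5 and control. Of the 5 members 4 had enough counts to be tested, and 0 of these 4 were called at an adjusted p under 0.05, beside 0.164% of the 15223 genes tested. All 4 fitted log2 fold changes of the count-based fit were below 0, from -0.46 for FOXO4 to -0.08 for FOXO1, with a median of -0.0016 over all genes tested. The siDDX5 and control libraries overlapped in CPM for every member, whereas they did not overlap for 18.0% of the genes tested, 8.87% with siDDX5 higher and 9.16% with it lower. Summed per gene, FOXO3 stood at 30.3 ± 5.13 TPM (SD, n = 3) in the control libraries, PAX3 at 21.7 ± 2.86, FOXO1 at 13.9 ± 4.41 and FOXO4 at 6.99 ± 1.62. The lowest control library of FOXO3 (24.8 TPM) lay above the highest of PAX3 (23.4 TPM), and the lowest of PAX3 (18.4 TPM) above the highest of FOXO1 (17.2 TPM). In the control libraries FOXO1 at its lowest (8.89 TPM) was still just above FOXO4 at its highest (8.79 TPM). In the siDDX5 libraries they overlapped, FOXO1 reaching down to 7.65 TPM and FOXO4 up to 8.59 TPM. In bulk RNA a smaller number of cells with a transcript and less of it in each cell cannot be told apart.

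**Figure D1:**
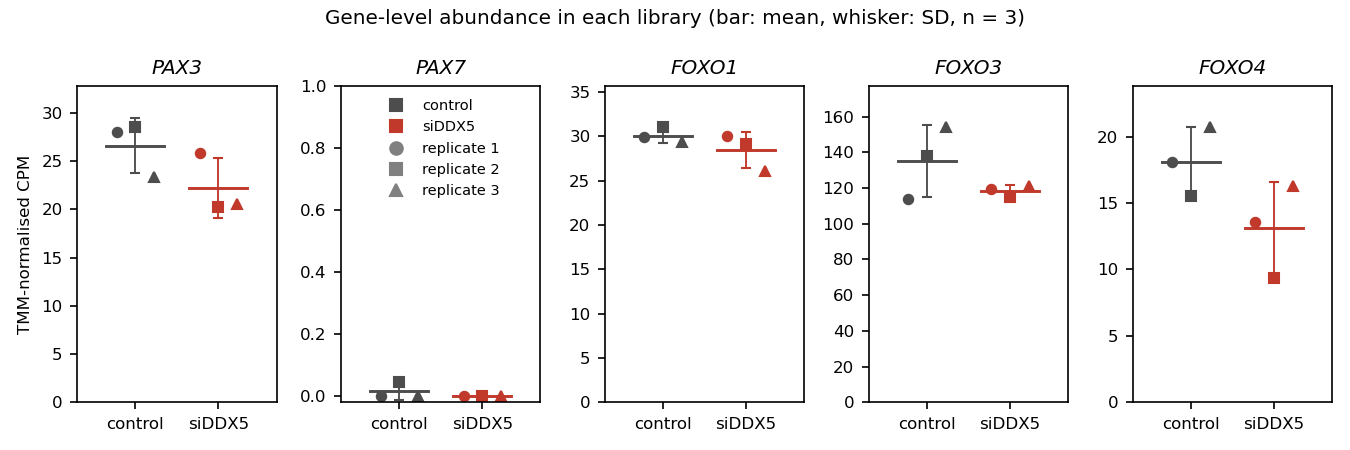
CPM of the 5 member genes, each panel with its own linear axis. Points are libraries, with 1 symbol for each replicate number, bars are means and whiskers SD (n = 3 per group). The groups overlap for PAX3, FOXO1, FOXO3 and FOXO4, and PAX7 has a single estimated count in control replicate 2.

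PAX3 (ENSG00000135903.19, chr2:222199888-222298996, minus strand) supplies the DNA-binding domains of the fusion and, as the unrearranged gene, marks muscle progenitors. It stood at 28.0, 28.5 and 23.3 CPM in control replicates 1, 2 and 3 and at 25.8, 20.2 and 20.6 CPM in siDDX5 replicates 1, 2 and 3. The siDDX5 replicates 2 and 3 lay below every control library, and siDDX5 replicate 1 lay within the control range. The means were 26.6 ± 2.83 and 22.2 ± 3.12 CPM (SD, n = 3 each), and the fitted log2 fold change was -0.26 (SE 0.14, adjusted p = 0.531, edgeR's quasi-likelihood test). Within each replicate number the siDDX5 library was the lower one, and blocking on that number gave an adjusted p of 0.223 (unadjusted p = 0.042, edgeR). PAX3 thus did not pass in either fit.

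PAX3 has 15 transcripts in the tables, and no one of them held most of its counts. ENST00000392070.6 (18.4 ± 4.31%), ENST00000647467.1 (18.2 ± 2.84%), ENST00000644490.1 (16.5 ± 2.98%) and ENST00000392069.6 (16.3 ± 1.27%) held similar shares of its estimated counts in the control libraries. ENST00000392069.6 and ENST00000392070.6 are protein-coding and include exons 1 to 7. ENST00000647467.1 is a processed transcript that ends in intron 4, and ENST00000644490.1 also ends before exon 5. How well kallisto could divide reads differs among them, since ENST00000392069.6 has 1098 words of 31 bases found in no other PAX3 transcript and ENST00000392070.6 has 0. None of the errors given here includes the uncertainty of that division.

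Of the 28 member transcripts 13 were tested, 9 of them from PAX3, and 0 were called at an adjusted p under 0.05, as were 0% of the 61666 transcripts tested by edgeR. At an unadjusted p under 0.05, 1 member transcript passed, against 7.08% of all transcripts. In counts scaled to the library total alone, 2 of the 13 had every siDDX5 library below every control library and 0 had the reverse, while 14.7% of all tested transcripts were apart in either direction, 9.03% with siDDX5 lower and 5.67% with it higher. These were ENST00000409551.7 of PAX3 and ENST00000374259.7 of FOXO4, the latter by a narrow gap that closed with TMM scaling. A test of transcript usage, which asks whether the transcripts of a gene shift against each other, called 1.61% of 10704 genes, and its adjusted p was 1.0 for both PAX3 and FOXO3.

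ENST00000409551.7 was the member transcript with the smallest p, and it differs from the other coding PAX3 transcripts at the start of exon 3, in the paired domain. Its exon 3 starts 3 bases later, leaving out a CAG. The junction of exons 2 and 3 in the longer and the shorter form is shown for that reason, with the CAG in capitals, between chr2:222295631-222297001 on the minus strand.
PAX3 long exon 3: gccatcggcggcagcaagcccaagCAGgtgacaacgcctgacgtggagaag
PAX3 short exon 3: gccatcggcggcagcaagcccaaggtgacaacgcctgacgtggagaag
The short form stood at 2.45, 2.35 and 1.97 TPM in the control replicates and at 1.43, 1.35 and 0.925 TPM in the siDDX5 replicates. Every siDDX5 library lay below every control library, on 58.0 to 78.9 estimated counts in the control and 20.8 to 34.3 in the siDDX5 libraries. The log2 fold change was -0.80 (SE 0.30, unadjusted p = 0.0327, adjusted p = 0.678 by edgeR's quasi-likelihood test), so the transcript did not pass. Only 28 of its words of 31 bases are found in no other PAX3 transcript.

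Among PAX3 transcripts that hold exons 2 and 3, the share of counts on the form without the CAG was 14.1%, 13.6% and 13.5% in the control replicates and 9.18%, 13.3% and 7.84% in the siDDX5 replicates. The 3 siDDX5 shares were the lowest, although siDDX5 replicate 2 lay close to the control libraries. The means were 13.7 ± 0.344% and 10.1 ± 2.86% (SD, n = 3 each; exact two-sided permutation p = 0.1, the smallest that 3 against 3 libraries allow). With the libraries paired by replicate number, an exact sign-flip test gave p = 0.25, the smallest it can reach here. As a share of TPM the groups overlapped, with a difference of -3.25 percentage points (exact permutation p = 0.4). This share was examined after the transcript values had been seen.

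ENST00000647467.1, the processed transcript that ends in intron 4, stood at 3.28, 3.57 and 2.2 TPM in the control replicates and at 1.58, 2.05 and 0.808 TPM in the siDDX5 replicates. The groups did not overlap in TPM, but they were close, and the log2 fold change of -0.93 (SE 0.42) did not pass (adjusted p = 0.734, edgeR's quasi-likelihood test). Against it, ENST00000392069.6 stood at 2.12 ± 0.0514 TPM in the control and 2.68 ± 0.628 TPM in the siDDX5 libraries (log2 fold change 0.40, adjusted p = 0.779, edgeR). Its share of the gene's counts was 15.2% to 17.7% in the control and 22.5% to 28.0% in the siDDX5 libraries, and that of ENST00000644490.1 was 13.2% to 18.8% and 20.2% to 23.0%. With ENST00000409551.7, which was lower, 3 of the 9 tested PAX3 transcripts had shares that did not overlap between the groups, where 14.6% of transcripts in genes with at least 2 tested did, 6.15% higher and 8.43% lower. The test of usage did not call PAX3, as given above. ENST00000392070.6 (3.03 ± 0.664 and 2.51 ± 0.974 TPM), ENST00000644490.1 (3.66 ± 0.549 and 3.82 ± 0.696 TPM) and ENST00000644937.1 (2.61 ± 0.99 and 2.26 ± 0.584 TPM) overlapped between the groups in TPM. So did ENST00000350526.9 (1.11 ± 0.0526 and 0.958 ± 0.467 TPM), ENST00000409828.7 (1.21 ± 0.0737 and 0.869 ± 0.387 TPM) and ENST00000646154.1, whose log2 fold change was 0.02. The other 6 PAX3 transcripts had too few counts to be tested, and the highest value among them was 2.72 TPM for ENST00000344493.9 in control replicate 2, a transcript listed at 0 in 4 of the 6 libraries.

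**Figure D2:**
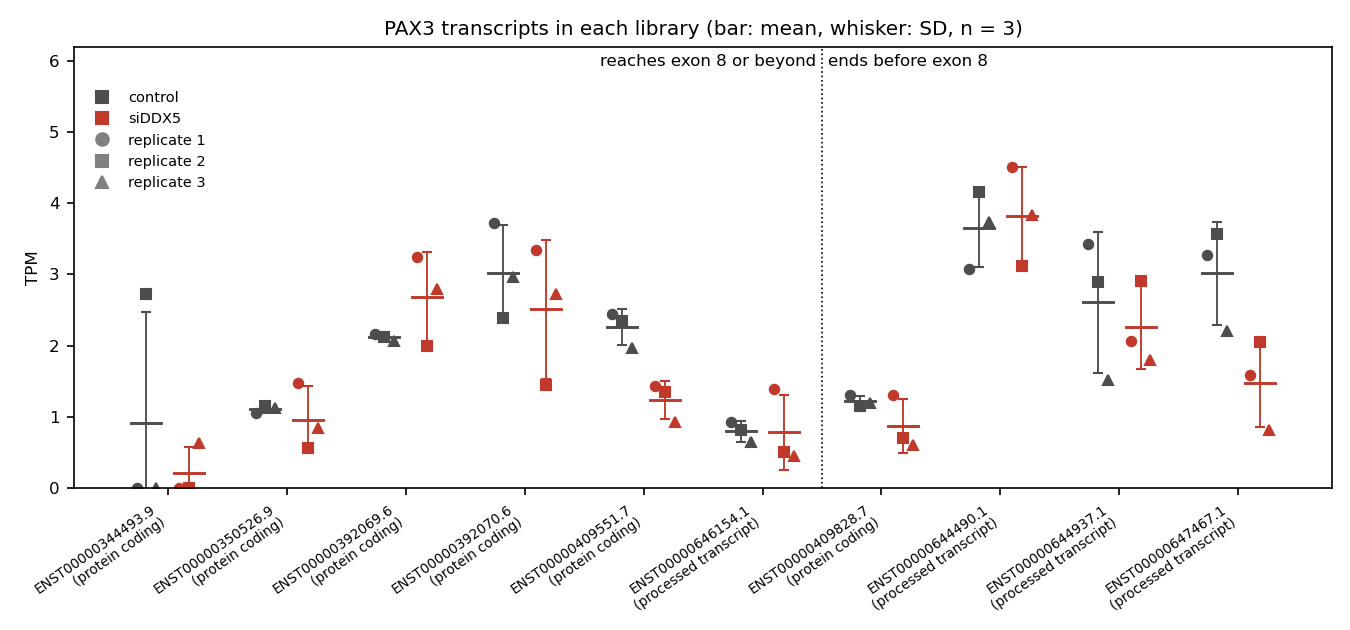
TPM of the PAX3 transcripts with a mean of at least 0.5 TPM in either group, with the annotated type of each in brackets. Points are libraries, bars are means and whiskers SD (n = 3), and the dotted line parts transcripts that reach exon 8 or beyond from those that end before it. ENST00000409551.7 and ENST00000647467.1 have every siDDX5 library below every control library in TPM, and the latter overlaps in counts scaled to the library total.

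Grouped by the fusion boundary, PAX3 transcripts with no exonic base beyond intron 7 were compared with those that reach exon 8 or beyond. The retained side holds 5 transcripts, each also lacking some of exons 1 to 7, so none of them is the PAX3 portion of the fusion as a whole. Bases within intron 7 were counted as retained, although the break lies at an unknown point within it. Of the 869 bases of ENST00000644937.1, only 445 do not lie beyond exon 7. They held 41.7%, 45.2% and 40.1% of PAX3 counts in the control replicates and 37.2%, 48.2% and 35.2% in the siDDX5 replicates. The siDDX5 libraries included both the highest and the 2 lowest shares. The means of 42.3 ± 2.62% and 40.2 ± 7.04% (SD, n = 3 each) did not differ beyond the spread (difference -2.14 percentage points, exact two-sided permutation p = 0.7). As a share of TPM the difference had the other sign, 0.478 percentage points (exact permutation p = 1.0). With only transcripts that have no base beyond exon 7, it was -2.63 percentage points in counts (exact permutation p = 0.5).

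The 6 PAX3 transcripts with all of exons 1 to 7 stood together at 9.75, 10.7 and 9.11 TPM in the control replicates and at 9.49, 5.35 and 7.94 TPM in the siDDX5 replicates. The siDDX5 replicate 1 lay within the control range and the other siDDX5 replicates below it. The 4 transcripts that end before exon 5 stood at 8.01 ± 0.876 and 6.28 ± 1.3 TPM, and the 5 that start after exon 4 at 3.81 ± 1.72 and 3.52 ± 1.06 TPM, in the control and siDDX5 libraries. The siDDX5 means were lower in all 3 groups of transcripts, and the libraries overlapped in each of them.

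**Figure D3:**
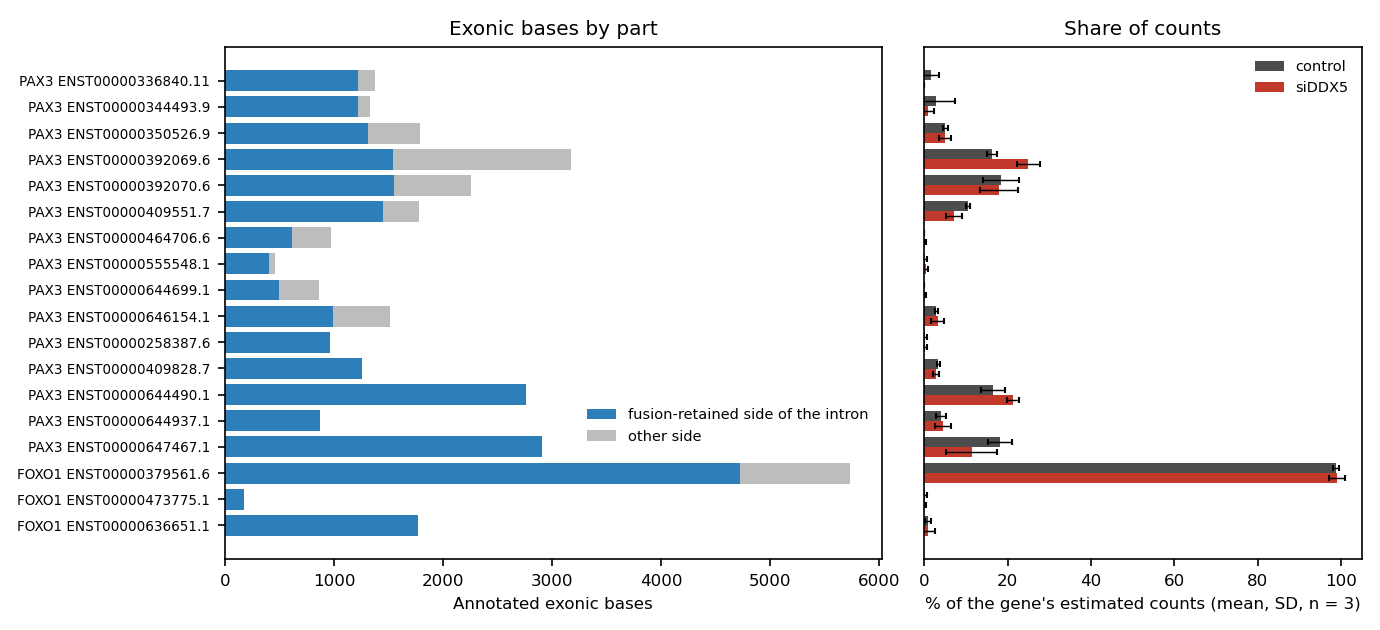
Left, annotated exonic bases of each PAX3 and FOXO1 transcript on the fusion-retained side of the breakpoint intron (blue) and on the other side (grey), with GENCODE release 29 models. Exonic bases that lie within the breakpoint intron are counted as retained. Right, the percent of the gene's estimated counts on each transcript, as mean and SD of 3 libraries per group. PAX3 counts are spread over many transcripts on both sides of the boundary, whereas FOXO1 counts lie almost wholly on ENST00000379561.6.

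FOXO1 (ENSG00000150907.7, chr13:40469953-40666597, minus strand) supplies the transactivation domain of the fusion. It stood at 29.9, 31 and 29.3 CPM in the control replicates and at 30.0, 29.1 and 26.1 CPM in the siDDX5 replicates. Replicate 1 of siDDX5 lay among the control libraries, and the other siDDX5 replicates lay just below them. The means were 30.1 ± 0.89 and 28.4 ± 2.04 CPM (SD, n = 3 each; log2 fold change -0.08, SE 0.11, adjusted p = 0.827, edgeR's quasi-likelihood test). On values built from TPM the log2 fold change was larger, -0.28 with length-scaled TPM and -0.34 and -0.37 with limma, and was not called in any of these.

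In contrast to PAX3, FOXO1 had a single transcript that carried nearly all its counts. ENST00000379561.6, which has all 3 exons, held 98.8 ± 0.76% of the counts in the control and 98.9 ± 1.93% in the siDDX5 libraries. It stood at 8.64, 8.96 and 8.76 TPM in the control replicates and at 8.94, 7.71 and 7.65 TPM in the siDDX5 replicates. Only siDDX5 replicate 1 reached the control range (log2 fold change -0.05, adjusted p = 0.961, edgeR's quasi-likelihood test).

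The other FOXO1 transcripts, ENST00000473775.1 and ENST00000636651.1, lack exon 1, begin within intron 1 and held few counts. All of intron 1 was counted as the fusion-retained 3′ side, although the break lies at an unknown point within it. ENST00000473775.1 has 178 bases and was given 4.0, 2.39 and 0 counts in the control replicates and 3.0, 0 and 0 in the siDDX5 replicates. Because of its short effective length, of 26.3 to 28.3 bases, these few counts appear as 8.48, 6.1 and 0 TPM and as 8.75, 0 and 0 TPM. Summed TPM of FOXO1 was accordingly 17.2, 15.5 and 8.89 in the control and 18.5, 7.71 and 7.65 in the siDDX5 replicates, a wider spread than that of its CPM. Over protein-coding transcripts alone PAX3 also stood above FOXO1, at 11.2 ± 0.816 against 8.79 ± 0.16 TPM in the control libraries.

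**Figure D4:**
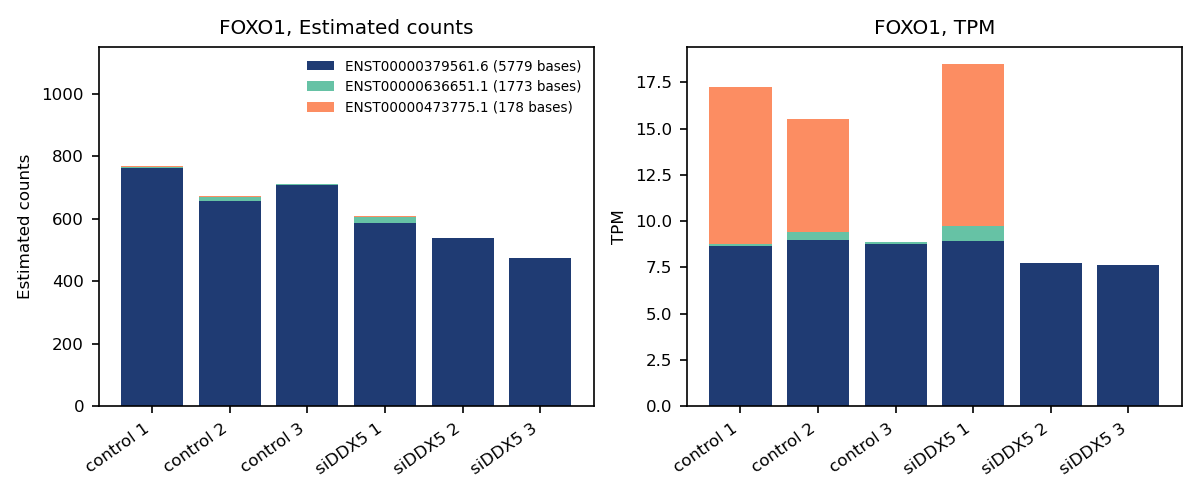
Estimated counts (left) and TPM (right) of the 3 FOXO1 transcripts, stacked, in each library. The counts are almost all on ENST00000379561.6, while the 178-base ENST00000473775.1 makes up a large part of the TPM in control replicates 1 and 2 and in siDDX5 replicate 1 from at most 4.0 counts.

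FOXO1 transcripts without exon 1 held 1.01%, 1.98% and 0.485% of the gene's counts in the control replicates and 3.34%, 0% and 0% in the siDDX5 replicates. The siDDX5 libraries held both the highest value and the lowest ones, and the mean difference was -0.0445 percentage points (exact two-sided permutation p = 1.0). The annotated full-length FOXO1 transcript contains the retained exons as well as exon 1, so its counts do not separate the 2 parts.

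The ratio of FOXO1 to PAX3 was taken within each library, which needs no scaling between libraries. The log2 ratio of their summed TPM was -0.44, -0.59 and -1.05 in the control replicates and -0.18, -1.03 and -1.03 in the siDDX5 replicates. These values overlapped almost fully (difference -0.05, exact two-sided permutation p = 1.0). They depended on the 178-base ENST00000473775.1, at 0 TPM in control replicate 3 and siDDX5 replicates 2 and 3 and at 6.1 to 8.75 TPM elsewhere. In estimated counts the log2 ratio was 0.183 ± 0.125 in the control and 0.362 ± 0.155 in the siDDX5 libraries (difference 0.18, exact permutation p = 0.2). Over protein-coding transcripts alone the log2 ratio was -0.40, -0.41 and -0.23 in the control and -0.32, 0.35 and -0.16 in the siDDX5 replicates. That difference was 0.31, opposite in sign to that of the summed TPM (exact permutation p = 0.2), and the high value of siDDX5 replicate 2 stood above all others.

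FOXO3 (ENSG00000118689.14, chr6:108559835-108684774, plus strand) encodes a forkhead factor known for its part in quiescence, apoptosis and muscle atrophy. It stood at 114, 138 and 154 CPM in the control replicates and at 119.7, 115 and 121 CPM in the siDDX5 replicates. The siDDX5 libraries were close together, above control replicate 1 and below the other control replicates. The means were 136 ± 20.3 and 119 ± 3.22 CPM (SD, n = 3 each; log2 fold change -0.19, SE 0.12, adjusted p = 0.595, edgeR's quasi-likelihood test). Without control replicate 3 the log2 fold change was -0.09. Counted together with FOXO3B, with which it shares words, FOXO3 had a log2 fold change of -0.18 (adjusted p = 0.598, edgeR). FOXO3B alone stood at 9.88, 9.95 and 8.45 CPM in control replicates 1, 2 and 3, and at 10.7, 8.39 and 8.14 CPM with siDDX5.

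ENST00000406360.2, which encodes the full-length factor, held 96.8 ± 0.747% of FOXO3 counts in the control and 98.3 ± 1.5% in the siDDX5 libraries, at 27.7 ± 4.55 and 24.1 ± 2.12 TPM. The shorter ENST00000540898.1 starts at a later first exon, with 1359 coding bases where the full-length transcript has 2019. It stood at 1.76, 3.35 and 2.81 TPM in the control replicates and at 2.55, 0.605 and 0.466 TPM in the siDDX5 replicates. The siDDX5 replicates 2 and 3 lay below all control libraries and siDDX5 replicate 1 lay within them, and the log2 fold change of -1.11 (SE 0.63) did not pass (adjusted p = 0.795, edgeR's quasi-likelihood test). ENST00000343882.10 was listed near 0 in every library.

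FOXO4 (ENSG00000184481.16, chrX:71096197-71103535, plus strand) encodes a family member that is fused to MLL in some leukaemias. It stood at 18.1, 15.5 and 20.7 CPM in the control replicates and at 13.6, 9.37 and 16.3 CPM in the siDDX5 replicates. Replicate 3 of siDDX5 lay above control replicate 2, and the other siDDX5 libraries lay below all the controls. Within each replicate number the siDDX5 library was the lower one. The means were 18.1 ± 2.61 and 13.1 ± 3.51 CPM (SD, n = 3 each), and the log2 fold change was -0.46 (SE 0.21, unadjusted p = 0.0477). FOXO4 did not pass after adjustment (adjusted p = 0.435, edgeR's quasi-likelihood test), and 10.9% of the genes tested had a smaller p. Blocking on the replicate number gave -0.48 (SE 0.12, unadjusted p = 0.00298, adjusted p = 0.0692, edgeR), nearer to the threshold but not past it. The unblocked log2 fold change also rested on single libraries, being -0.27 without siDDX5 replicate 2 and -0.65 without siDDX5 replicate 3.

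Almost all FOXO4 counts lay on ENST00000374259.7, which stood at 6.53, 5.65 and 7.66 TPM in the control replicates and at 5.08, 3.14 and 5.74 TPM in the siDDX5 replicates. In TPM siDDX5 replicate 3 lay just above control replicate 2. In counts scaled to the library total it lay just below (15.6 against 15.7), and with the TMM factors just above (15.6 against 15.4), so that whether the groups overlapped depended on the scaling. Its log2 fold change was -0.46 (SE 0.24, adjusted p = 0.768, edgeR's quasi-likelihood test). Summed over transcripts the TPM of FOXO4 gave 6.99 ± 1.62 in the control and 6.49 ± 2.86 in the siDDX5 libraries. That sum includes ENST00000464598.1, a transcript of 306 bases given 4.0 counts and 3.48 TPM in siDDX5 replicate 1, and ENST00000466874.1 at 1.9 TPM in siDDX5 replicate 3. With protein-coding transcripts alone FOXO4 stood at 6.61 ± 1.01 and 4.66 ± 1.35 TPM. On summed TPM the log2 fold change of FOXO4 was smaller, -0.08 with length-scaled TPM and -0.16 and -0.20 with limma, so that on this scale FOXO1 had the larger fold change of the pair.

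PAX7 (ENSG00000009709.11, chr1:18631006-18748866, plus strand), the PAX3 paralog of satellite cells and the other PAX gene fused to FOXO1 in this tumour, was listed at 0 in 5 of the 6 libraries. Control replicate 2 held 1 estimated count, or 0.0463 CPM, on ENST00000400661.3. With no more than 3 counts in any library PAX7 was under the level at which a difference could be detected, and no fold change is given.

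FOXO6, the remaining FOXO gene, stood at 3.19, 0 and 3.59 CPM in the control replicates and at 4.3, 2.54 and 6.6 CPM in the siDDX5 replicates, and did not pass (log2 fold change 0.97, SE 0.79, adjusted p = 0.687, edgeR's quasi-likelihood test). Of the 9 PAX genes 5 were tested and 0 were called, where 0.164% of all genes tested were. The median log2 fold change of the 5 was -0.26. Beside PAX3, PAX6 stood at 8.4 ± 1.89 and PAX8 at 7.35 ± 1.99 CPM in the control libraries. PAX6 and PAX8 had log2 fold changes of -0.26 and -0.25, and PAX2 and PAX5, at under 1 CPM, of -0.83 and 0.38.

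The kinases, 14-3-3 proteins, acetylases and ubiquitin enzymes that act on FOXO proteins form a list of 36 genes, all of them tested. Called genes numbered 0 (0.164% of all genes), 8 had an unadjusted p under 0.05 where 11.4% of all genes did, 20 fold changes were above 0 and 16 below, and their median was 0.03. AKT1, the kinase that phosphorylates FOXO proteins, stood at 244, 208 and 185 CPM in control replicates 1, 2 and 3, against 152, 143 and 132 CPM with siDDX5. Every siDDX5 library lay below every control library, with a log2 fold change of -0.58 (SE 0.12). The adjusted p was 0.111 by edgeR's quasi-likelihood test without a term for the replicate number and 0.0135 with it, so that AKT1 passed in the fit with the block, which called 2.59% of genes, 1.45% as lower. AKT2 (110.1 ± 8.82 and 104 ± 5.7 CPM) overlapped between the groups. YWHAE, a 14-3-3 protein, had a log2 fold change of 0.26 and did not pass (adjusted p = 0.369, edgeR).

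Of 32 genes known as FOXO targets 25 were tested and 0 were called, where 0.164% of all genes tested were. An unadjusted p under 0.05 was reached by 3 of the 25, and by 11.4% of all genes. There were 14 fold changes above 0 and 11 below, with a median of 0.05. BCL2L11, which encodes the pro-apoptotic BIM protein, stood at 23.5, 37.9 and 33.7 CPM in control replicates 1, 2 and 3 and reached 43.4, 52.1 and 60.4 CPM with siDDX5. Even the lowest siDDX5 library stood above the highest control, with a log2 fold change of 0.71 (SE 0.19, adjusted p = 0.196, edgeR's quasi-likelihood test). With the replicate block BCL2L11 passed (log2 fold change 0.73, adjusted p = 0.0125, edgeR), as 1 of the 1.14% of genes called higher in that fit. KLF2 (log2 fold change -0.72, adjusted p = 0.381) and RBL2 (-0.34, adjusted p = 0.257), a transcription factor and a pocket protein, did not pass in edgeR's test. The cell cycle inhibitors CDKN1A and CDKN1B had log2 fold changes of 0.08 and -0.21, and FBXO32, the muscle atrophy ubiquitin ligase, of 0.14.

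Partners and regulators of PAX3 and of the fusion numbered 39, of which 35 were tested and 0 called, beside 0.164% of all genes tested. An unadjusted p under 0.05 was reached by 4 of the 35, and by 11.4% of all genes. There were 16 fold changes above 0 and 19 below, with a median of -0.02. The members with the smallest p were MITF, a target and partner of PAX3 in melanocytes (-0.60, adjusted p = 0.329), KAT2B, an acetyltransferase (-0.37, adjusted p = 0.357), and NCOA2, a coactivator (-0.32, adjusted p = 0.357), none of which passed edgeR's test. Of 30 genes known as targets of PAX3-FOXO1 26 were tested and 0 called, again beside 0.164% of all genes. An unadjusted p under 0.05 was reached by 4 of the 26, against the same 11.4%. Their fold changes lay 13 on each side of 0, with a median of -0.01. FGFR4, a receptor gene bound by the fusion, stood at 276 ± 44.0 and 277 ± 24.4 CPM in the control and siDDX5 libraries, MYCN at 28.7 ± 3.58 and 30.1 ± 2.34 CPM and MYOD1 at 193 ± 38.2 and 184 ± 39.6 CPM. In TPM, FGFR4 stood at 231, 221 and 211 in the control and at 192, 184 and 193 in the siDDX5 replicates, lower without overlap where its CPM overlapped. PRKD1 (-0.44, adjusted p = 0.25), DKK1 (-0.50, adjusted p = 0.309) and OLIG2 (0.51, adjusted p = 0.397) had the smallest p and did not pass edgeR's test.

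**Figure D5:**
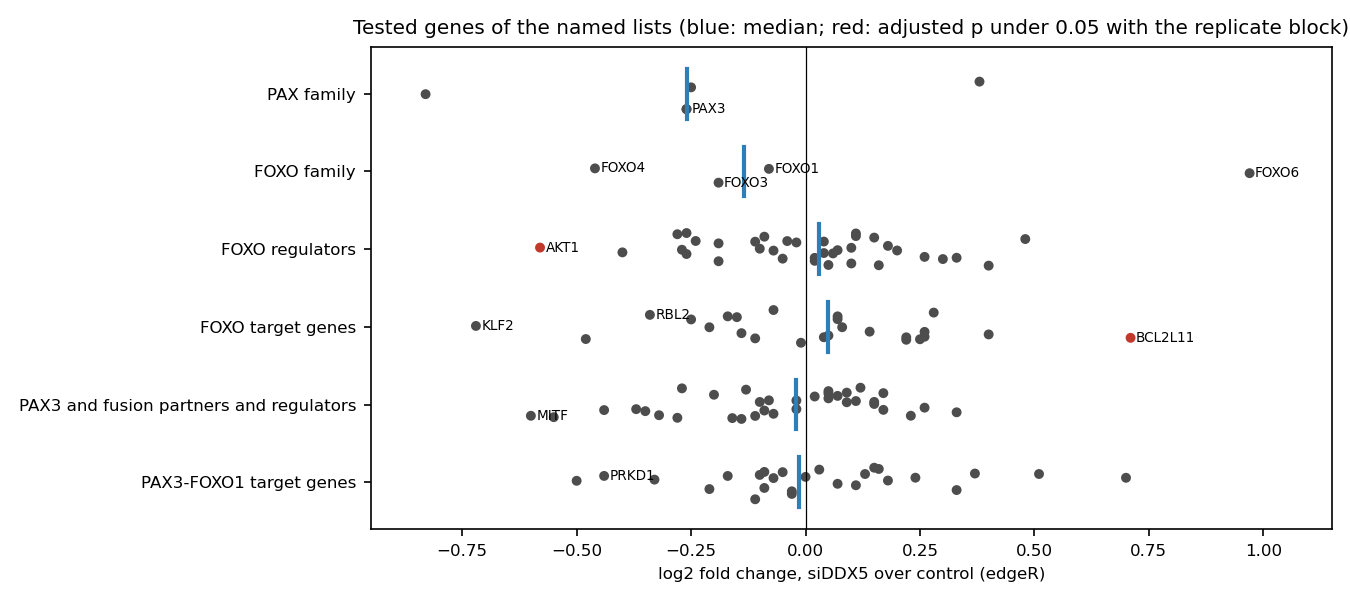
Fitted log2 fold change of siDDX5 over control for each tested gene of the 6 lists, with 1 point per gene, the list's median as a blue line and small vertical scatter to part the points. Genes in red, AKT1 and BCL2L11, pass an adjusted p of 0.05 in the fit with the replicate block and not in the fit without it, and the medians lie between -0.26 and 0.05.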

How the data were processed

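The deposited tables give, for each transcript and library, estimated counts and TPM that the authors made with kallisto 0.46.0, after bcl2fastq 2.20, FastQC 0.11.8 and cutadapt 1.11, on GRCh38, per the submitters' processing notes. The labels' protocols name a stranded mRNA library kit, and kallisto's settings, strand included, and the annotation release are not given in the sources used here. Transcripts were joined to GENCODE release 29 by identifier (169797), symbol (15291) or position (890), and 2775 were left out of gene sums. The tables hold newer versions of ENST00000379561 and ENST00000406360 than that release, from which sequences and exon boundaries were taken.

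Estimated counts were summed per gene, rounded and tested with edgeR 4.0.16 in R 4.3.3 (filterByExpr, TMM scaling, glmQLFit and glmQLFTest, Benjamini-Hochberg adjustment over all genes or transcripts tested), without covariates. CPM are gene counts scaled to each library's TMM-adjusted total, except that overlap of single transcripts was counted on the plain total, and SE is the absolute log2 fold change divided by the square root of F. Transcript usage was tested with diffSpliceDGE and a Simes test per gene. Shares and ratios were compared with exact permutation tests over the 6 libraries. The code was tested on simulated data. Whether equal replicate numbers mark a shared culture or day is not given in the sources used here. The deviations of same-numbered libraries from their group means correlated at 0.209, 0.269 and 0.577 over 15223 genes. The main fits and the permutation tests do not use this pairing, and a replicate block was run as an alternative. Blocked values are therefore given where they change a call, for PAX3 and FOXO4, and for the PAX3 share without the CAG.

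The members and gene lists were chosen with earlier results of these data known. The text names the members, DDX5, transcripts of at least 0.5 TPM in either group, called list genes, the 3 tested members of each list with the smallest p, and the 3 nearest and 2 farthest genes by correlation, and 1 list gene that the rule names is not reported here. AKT2, CDKN1A, CDKN1B, FBXO32, FGFR4, MYCN, MYOD1, PAX5, PAX8, FOXO3B and the transcripts under 0.5 TPM were added after their values were seen. Alternatives were DESeq2 1.42.0, limma 3.58.1 on log2(TPM + 1) and log2(TPM + 0.1), length-scaled TPM, other filters, the replicate block and leaving out each library.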

Additional observations from a re-analysis of the deposited data

How the results depend on the processing

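Fold changes of PAX3, FOXO1, FOXO3 and FOXO4 stayed below 0 and were not called in any alternative run. PAX7 was fitted only without the filter, on 1 count, and was not called (adjusted p = 0.79, edgeR). Without 1 library at a time they ran from -0.38 to -0.20 for PAX3, -0.12 to -0.02 for FOXO1, -0.30 to -0.09 for FOXO3 and -0.65 to -0.27 for FOXO4. Length-scaled TPM and limma on log2(TPM + 1) and log2(TPM + 0.1) moved FOXO1 to -0.28, -0.34 and -0.37 and FOXO4 to -0.08, -0.16 and -0.20. DDX5 ran from -1.54 to -1.30 and lost its call without control replicate 1, siDDX5 replicate 1 or siDDX5 replicate 2. It also lost it with length-scaled TPM (-1.37) and with limma on log2(TPM + 1) or log2(TPM + 0.1) (-1.44 in both). The 25 genes called by edgeR became 323 with DESeq2, 136 without the filter, 2 with length-scaled TPM and 1 with either limma fit. They numbered 0 to 15 without 1 library, with 0 without control replicate 1 (1244 at an unadjusted p under 0.05) and without siDDX5 replicate 1 (2042). With the replicate block 395 genes were called, among them AKT1 and BCL2L11, and no other call on a member or list gene changed. FOXO regulators held 1 called gene with DESeq2, without the filter and with the block, and FOXO targets 1 with DESeq2 and with the block. Transcripts called numbered 827 with DESeq2 and 9 and 2 with limma, none of them a member's. Genes with changed usage numbered 395 without the filter, 41 at a mean of at least 50 counts and 219 to 455 without 1 library, the highest without siDDX5 replicate 1. The PAX3 share within the retained part differed by -6.16 to 0.377 percentage points without 1 library, positive without siDDX5 replicate 3, and by 0.478 as a share of TPM. The FOXO1 share differed by -1.16 to 0.513 points and the FOXO1 to PAX3 log2 ratio by -0.33 to 0.09 without 1 library, the ratio by 0.18 in counts and 0.31 over coding transcripts. The share without the CAG, chosen after seeing the data as were the FOXO3B sum and the exon 7 boundary, kept its sign, from -5.22 to -2.48 points without 1 library. Why these values moved was not tested. With 3 libraries a group, exact tests reach no p below 0.1.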

Other observations

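The protein-coding genes whose log2 CPM followed each member most closely over the 6 libraries were ranked by Pearson's r among the 10744 that averaged 5 CPM or more. With so many genes and 6 libraries, values near 1 or -1 are found for any gene, so these are descriptions, and the points share library and depth. PAX3 was followed most closely by ANKRD36B (r = 0.996), USP6NL (0.989) and NFKB1 (0.988), and ran most against RGS3 (-0.998) and METTL23 (-0.990). FOXO1 was nearest to CRTC3 (0.994), TBC1D19 (0.994) and ZNF280C (0.985), and farthest from ST7L (-0.995) and PER1 (-0.980). FOXO3 was nearest to ATP7A (0.976), ACTR2 (0.975) and NPC1 (0.972), and farthest from ADORA1 (-0.978) and ZSWIM7 (-0.975). FOXO4 was nearest to NAA40 (0.995), PPP1R13B (0.994) and NADSYN1 (0.993), and farthest from TTC27 (-0.996) and NPM1 (-0.996). No gene was named for more than 1 member.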
